A study of Caenorhabditis elegans with 12 samples.

Results

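The inducible heat shock genes of Caenorhabditis elegans examined here were the small heat shock protein genes hsp-16.1, hsp-16.11, hsp-16.2, hsp-16.41, hsp-16.48 and hsp-16.49, the HSP70-class chaperone genes hsp-70, F44E5.4 and F44E5.5, and the transcription factor gene hsf-1. They were chosen by gene name, with earlier results of these data known, as were the other gene lists below. Their counts beside the share of all genes are therefore descriptive. Of these 10 genes, 9 had a row among the 21982 genes of the table, and hsp-16.49 was not analysed here. Each of the 9 passed the filter on low values, a mean of at least 10 normalized counts.

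RNA came from whole worms of strain KH2235 on day 6. All worms of both groups carry a minigene of ret-1 that reports alternative splicing by its colour, and the labels used here name no promoter for it. The Green group was the worms with mostly GFP fluorescence, and the Red group those with mostly mCherry. There were 6 Green and 6 Red libraries, and each of 6 batches held 1 of each. The comparison asks how expression differs between worms of 1 strain and age that differ in reporter splicing.

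Heat shock factor 1, the product of hsf-1, is the main transcription factor of the heat shock response. When proteins misfold it binds heat shock elements and drives genes for chaperones. The hsp-16 genes encode small alpha-crystallin-like chaperones that hold unfolded proteins without using ATP, and in worms they are nearly silent without stress, which has made hsp-16.2 a common stress reporter. The hsp-70, F44E5.4 and F44E5.5 genes encode stress-inducible relatives of HSP-1, the constitutive cytosolic chaperone that folds proteins with ATP.

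Libraries held 30185155 to 87141961 recovered reads, and both batch 6 libraries were deep. Markers of intestine, body wall muscle, neurons and germline were detected, with 9, 10, 10 and 10 genes passing the filter, which fits the whole-body label. Both libraries of batch 6 stood apart from the other 10 for some genes. Of 14618 genes tested, 673 were higher in both batch 6 libraries than in each of the others and 366 were lower. At a gap of at least 8-fold, 2 genes were above and 10 below, and hsp-16.11 was among the 2 above. Red replicate 6 also departed from the other Red libraries for most hsp-16 genes and for other genes. For example, hsp-1 had 238593 normalized counts in it, against 125205 to 146941 in the other Red libraries. Results that rest on Red replicate 6 are therefore given with and without it. Since the values tested singled it out, p-values and counts without it or batch 6 show only how much it weighs. The labels do not say that the libraries came from separate cultures, so the p-values concern only the variation among the libraries at hand, which may be technical.

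Of the 10 members, 8 lie in 3 groups of close neighbours (build WBcel235), and within these all adjacent genes point away from each other except hsp-16.48 and hsp-16.49, which point toward each other. On chromosome V, hsp-16.2 (1804334 to 1804957, minus strand) and hsp-16.41 (1805178 to 1805875, plus strand) are 220 bases apart. A second cluster of 3312 bases on the same chromosome holds hsp-16.1 (9087293 to 9087782, minus), hsp-16.48 (9088131 to 9088617, plus), hsp-16.49 (9089280 to 9089766, minus) and hsp-16.11 (9090077 to 9090604, plus). On chromosome II, F44E5.4 (11757107 to 11759311, minus) and F44E5.5 (11759662 to 11761861, plus) are 350 bases apart. Each of these 8 genes has 2 exon blocks. The genes hsp-70 and hsf-1 lie far apart on chromosome I, with 3 and 9 exon blocks.

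Most inducible chaperone genes were lower in Green than in Red. Levels are normalized counts, and differences are log2 folds of Green against Red, computed on log2(normalized count + 1). Of the 9 members, 5 passed as lower in Green (limma, Benjamini-Hochberg adjusted p under 0.05) and 0 as higher, against a background of 20.1% lower and 19% higher, 39.1% in all, over all genes tested. Those 5 were F44E5.4, F44E5.5, hsp-70, hsp-16.2 and hsp-16.48. At an unadjusted p under 0.05 the count higher in Green was also 0. The median log2 fold of the 9 members was -0.99, and that of all tested genes was 0.04. With the batch as a block 6 passed as lower and 0 as higher (background 22.6% and 23.2%). In edgeR 5 were lower and 0 higher, against a background of 22.2% lower and 38.4% in either direction, and in DESeq2 also 5 and 0, against 22.7% lower. In both of these hsp-16.41 passed and hsp-16.48 did not, so the 5 are not the same genes as in limma. Without Red replicate 6, 7 members passed as lower and 1 as higher, against a background of 25.5% and 29.3%, and without batch 6 these were 8 and 1, against 23.7% and 27.2%. With quantile normalization 3 members passed as lower, against 2349 of all 14618 genes (32.2% in either direction), and with each library centred on its median gene, which moved the median log2 fold of all genes to 0.16, 2 did, F44E5.4 and F44E5.5, against 2337 of all genes (44.5% in either direction). In bulk RNA from whole worms, fewer cells making a transcript and less of it per cell cannot be told apart.

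**Figure D1:**
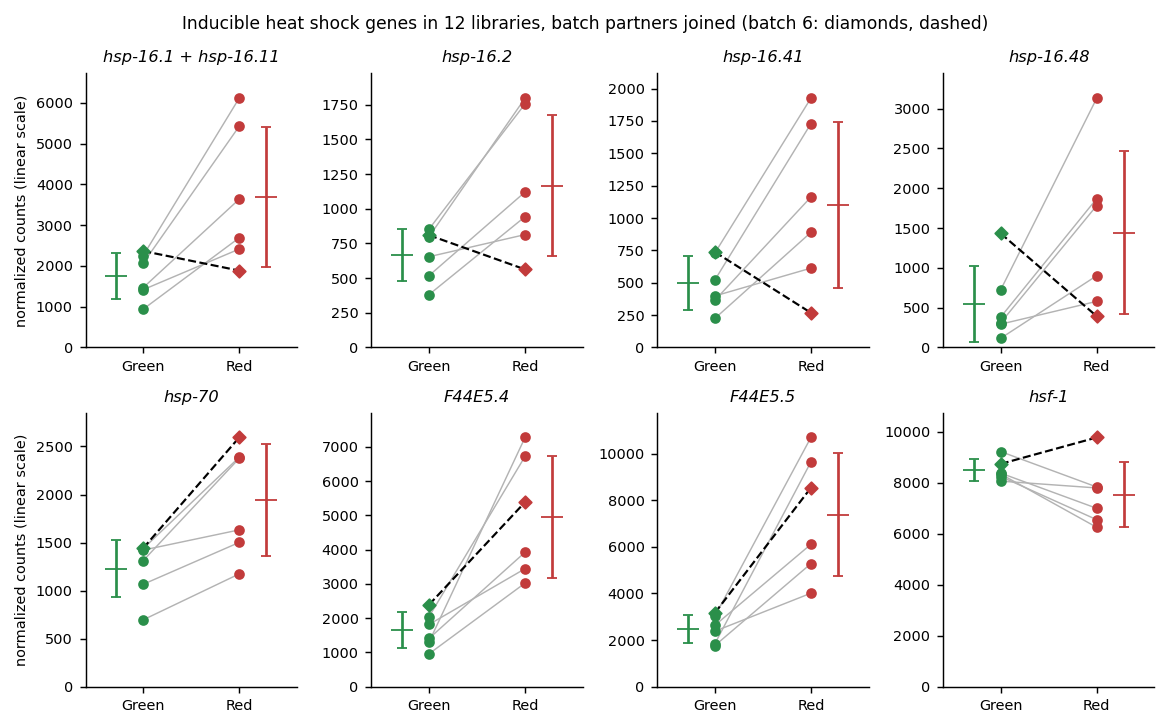
Normalized counts (linear scale, each panel with its own axis from 0) of the inducible heat shock genes in 6 Green and 6 Red libraries; lines join the libraries of a batch, bars give mean and SD, and batch 6 is drawn as diamonds with a dashed line. The copies hsp-16.1 and hsp-16.11 are drawn as their sum. F44E5.4 and F44E5.5 do not overlap between groups, and batch 6 runs against the other 5 batches for that sum, hsp-16.2, hsp-16.41, hsp-16.48 and hsf-1.

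Markers of germline, eggs, embryos and moulting larvae also differed between the groups. Over all genes tested, 19% passed as higher in Green and 20.1% as lower. Of 17 tested larval moult markers, 13 were lower in Green and 0 higher, and their summed level was 3541 to 6448 in Green libraries and 7409 to 18536 in Red libraries. Of 15 zygotic embryo markers, 10 were lower and 1 was higher in Green, with sums of 14082.5 to 15282 in Green and 16478 to 20432.5 in Red. Of 17 oocyte and eggshell markers, 15 were higher and 0 lower in Green, with sums of 1074000 to 1334750 in Green and 608678 to 1218150 in Red. All 10 of 10 germline markers were higher in Green (8 in edgeR), with sums of 230885 to 273359 in Green and 146877 to 254536 in Red. In the oocyte and germline lists the highest Red sum was that of Red replicate 6. The other Red libraries reached at most 950538 and 209299, below every Green library. Red replicate 6 also had the highest sums of embryo and moult markers. Of 10 body wall muscle markers 6 were higher, of 9 intestine markers 2 were higher and 1 lower, and of 10 neuron markers 5 were lower. Of 14 sperm markers 5 could be tested, and 1 was lower. No marker was at 0 in all libraries. The part of these markers in the differences of the heat shock genes was not tested.

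The 2 copies on chromosome II, F44E5.4 and F44E5.5, had the smallest adjusted p among the members. F44E5.4 had a lowest, median and highest value of 960.1, 1612 and 2391 in Green, and of 3023, 4654 and 7270.35 in Red. F44E5.5 had 1764, 2508 and 3167 in Green, and 4011, 7319 and 10689 in Red. For both genes every Green library was below every Red library, a pattern that 9.71% of all tested genes had. F44E5.4 averaged 1653 ± 527 in Green, against 4961 ± 1774 in Red (mean ± SD, 6 libraries a group), a log2 fold of -1.57 ± 0.25 (standard error; adjusted p = 0.000325, limma). F44E5.5 averaged 2469 ± 587 in Green, against 7376 ± 2637 in Red, with a log2 fold of -1.53 and a standard error of 0.23 (limma adjusted p = 0.000223).

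Reads of these near-identical copies can be split between them by the counting, so their sum is also given. The sum had a log2 fold of -1.55 ± 0.23 (standard error; adjusted p = 0.000187, limma). By the exact two-sided permutation of the 12 libraries its p was 0.00216, the smallest that the 924 assignments allow. Such permutations of libraries over the groups ignore the batch pairing, unless exchange within batches is named. F44E5.4 held 35.2% to 49.4% of the sum across the 12 libraries. The ratio of F44E5.5 to F44E5.4 was 1.53 ± 0.19 in Green, against 1.51 ± 0.29 in Red (exact two-sided permutation p = 0.807).

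The third inducible HSP70-class gene, hsp-70, was lower in Green by a smaller amount. Its lowest, median and highest values were 696, 1367 and 1441 in Green, and 1174, 2004 and 2594 in Red. The groups overlapped, since Red replicate 4 lay below 4 Green libraries, although the Green library was the lower one in each of the 6 batches. The means were 1229 ± 298 in Green, against 1944 ± 582 in Red (mean ± SD, 6 libraries a group), and the log2 fold was -0.65 ± 0.22 (standard error; adjusted p = 0.0288, limma). When Green replicate 1 or 4, or Red replicate 2 or 5, was left out it did not pass, and the adjusted p was 0.0544 to 0.0679. With the batch as a block the adjusted p was 0.000752. Summed, hsp-70, F44E5.4 and F44E5.5 had 5352 ± 1348 normalized counts in Green, against 14281 ± 4829 in Red, with a log2 fold of -1.39 (adjusted p = 0.000348 in limma).

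Among the small heat shock genes, hsp-16.2 and hsp-16.41 share 1 intergenic stretch. For hsp-16.2 the lowest, median and highest values were 381, 726 and 853 in Green, and 563, 1032 and 1797 in Red. For hsp-16.41 they were 224, 459.5 and 737 in Green, and 268, 1025 and 1926 in Red. In both genes the lowest Red library was replicate 6, and both it and Red replicate 1 lay inside the Green range. hsp-16.2 had a log2 fold of -0.74 ± 0.28 (standard error; adjusted p = 0.0462, limma). hsp-16.41 had a log2 fold of -0.99 ± 0.42 (standard error) and did not pass in limma (adjusted p = 0.0764), but it passed in edgeR (adjusted p = 0.0345) and in DESeq2.

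Since Red replicate 6 was the lowest Red library for both genes, leaving it out had to move both further down in Green. The log2 fold of hsp-16.2 was then -0.92 (limma adjusted p = 0.00631) and that of hsp-16.41 was -1.34 (limma adjusted p = 0.00434). The hsp-16.2 result was close to the threshold. It was lost when 1 of Green replicates 1, 2, 3, 4 and 6, or 1 of Red replicates 2 to 5, was left out, with adjusted p between 0.0503 and 0.11.

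In the second cluster, hsp-16.48 varied most within the groups among the genes without a near-identical copy of their own in the table. Its lowest, median and highest values were 116, 347 and 1432 in Green, and 392, 1343 and 3132 in Red. Green replicate 6 was the highest Green library and Red replicate 6 the lowest Red one, and without batch 6 only Green replicate 5, at 725, exceeded a Red library. The log2 fold was -1.50 ± 0.57 (standard error; adjusted p = 0.0493, limma), and the adjusted p was 0.059 in edgeR and 0.0582 in DESeq2. Without batch 6 the log2 fold was -2.17 (adjusted p = 0.00328 in limma). The result was lost when 1 of Green replicates 1 to 4, or 1 of Red replicates 2 to 5, was left out, with adjusted p between 0.0691 and 0.112. Because hsp-16.49 is a near-identical copy of hsp-16.48 with no row here, how its reads were assigned was not tested.

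The copies hsp-16.1 and hsp-16.11 are given together, because their counts were split differently in batch 6. In the 10 libraries of batches 1 to 5, hsp-16.11 held 0.519% to 5.03% of the summed count. In Green replicate 6 it held 63%, with an exact 95% interval from 61.6% to 64.5%, and in Red replicate 6 it held 100%, with an interval from 99.9%. Intervals cover counting error only. Red replicate 6 had 0 reads on hsp-16.1, where 3 reads would be 1.89 normalized counts, and 2998 reads on hsp-16.11. Taken alone, hsp-16.1 had a log2 fold of 0.57 ± 1.65 (standard error; adjusted p = 0.799, limma), a value that depends on the added 1, and -1.40 without Red replicate 6 (limma adjusted p = 0.00142). hsp-16.11 alone had a log2 fold of -1.82 (adjusted p = 0.197, and 0.00838 with the batch as a block in limma).

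**Figure D2:**
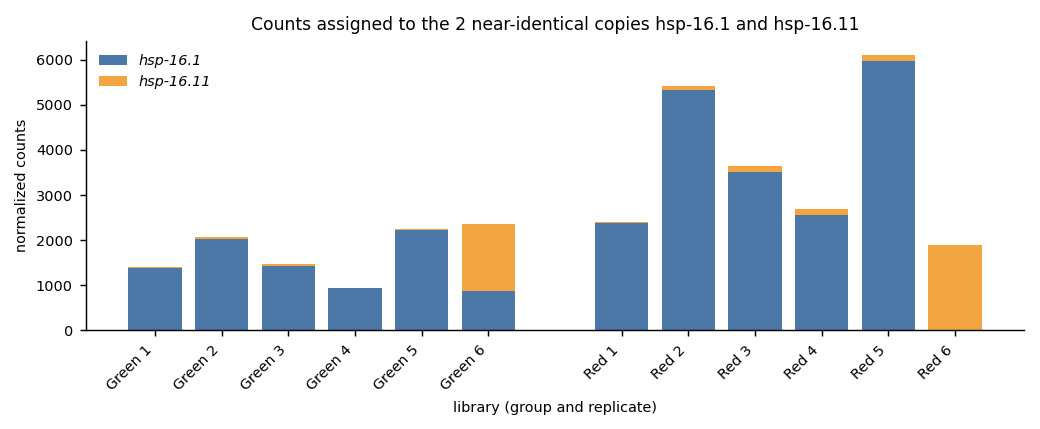
Normalized counts (linear scale) assigned to hsp-16.1 and to hsp-16.11, stacked, in the 6 Green and 6 Red libraries. hsp-16.1 takes nearly the whole bar in batches 1 to 5, while hsp-16.11 takes 63% in Green replicate 6 and 100% in Red replicate 6.

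The sum of hsp-16.1 and hsp-16.11 does not depend on that split. It had a lowest, median and highest value of 937, 1765 and 2364 in Green, and of 1885, 3162 and 6112 in Red. It averaged 1749.8 ± 562 in Green, against 3692 ± 1718 in Red (mean ± SD, 6 libraries a group). Only Red replicate 6 fell within the Green range. The log2 fold was -1.02 ± 0.29 (standard error; limma adjusted p = 0.0137, exact two-sided permutation p = 0.0173). It passed without any 1 of the 12 libraries, with an adjusted p of at most 0.0356.

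Ratios between members were compared as well. In all, 4 were examined, chosen after the values were seen: 1 is given above for F44E5.5, and 3 concern the small chaperones. The sum of hsp-16.1 and hsp-16.11 over hsp-16.2 was 2.60 ± 0.27 in Green, against 3.15 ± 0.24 in Red (mean ± SD, 6 libraries a group), with an exact two-sided permutation p of 0.00433 and 0.0173 adjusted over the 4 ratios. In this ratio batch 6, at 2.92 in Green and 3.35 in Red, lay just above the other Green values and within the Red ones. The ratio of hsp-16.41 to its divergent neighbour hsp-16.2 was 0.72 ± 0.13 in Green, against 0.88 ± 0.23 in Red (exact permutation p = 0.255). Without Red replicate 6 that p was 0.0216, and 0.0433 adjusted. The ratio of hsp-16.48 to the summed hsp-16.1 and hsp-16.11 was 0.28 ± 0.17 in Green, against 0.36 ± 0.13 in Red (exact permutation p = 0.229).

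The 5 hsp-16 rows summed gave 3457 ± 1359 normalized counts in Green, against 7399 ± 3835 in Red (mean ± SD, 6 libraries a group). The lowest, median and highest sums were 1657, 3263 and 5343 in Green, and 3107, 6561 and 12925 in Red. The groups overlapped, since Red replicate 6 lay below 3 Green libraries and Red replicate 1 below 2 of them. The log2 fold was -1.03 ± 0.34 (standard error; limma adjusted p = 0.0274, exact two-sided permutation p = 0.0368). With Green replicate 1, 3 or 4, or Red replicate 2 or 5, left out the adjusted p was 0.0507 to 0.0667. Without Red replicate 6, the lowest Red library, the log2 fold had to fall, and it was -1.24 (adjusted p = 0.0046 in limma).

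The gene for the factor itself, hsf-1, did not pass in either direction over all libraries. Its lowest, median and highest values were 8061, 8357 and 9218 in Green, and 6249, 7393 and 9772 in Red. The highest library of all was Red replicate 6, and every other Red library lay below every Green one. The means were 8495 ± 418 in Green, against 7531 ± 1271 in Red (mean ± SD, 6 libraries a group). The log2 fold was 0.19, with a 95% confidence range of -0.02 to 0.40 (limma adjusted p = 0.134). Without Red replicate 6, the highest Red library, the log2 fold had to rise. It was then 0.27 and passed as higher in Green (limma adjusted p = 0.00581).

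Batch by batch, each of the 8 chaperone members with a row was lower in Green in batches 1 to 5. The median log2 difference of the 8 genes was -0.76 in batch 1, -1.61, -1.26, -1.62 and -1.57 in batches 2 to 5, and 0.09 in batch 6. In batch 6, hsp-16.11, hsp-70, F44E5.4 and F44E5.5 were lower in Green, while hsp-16.1, hsp-16.2, hsp-16.41 and hsp-16.48 were higher. The copies hsp-16.1 and hsp-16.11, split differently in that batch, count separately here and in the median. Their sum was higher in Green in batch 6, with a log2 difference of 0.33. Over the 9 members, 4 were lower in Green in 6 of 6 batches, against 20.2% of all tested genes. The 4 include hsp-16.11, whose batch 6 values depend on that split. hsf-1 was higher in Green in batches 1 to 5, by 0.05 to 0.42 on the log2 scale, and lower in batch 6, with a log2 difference of -0.16.

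**Figure D3:**
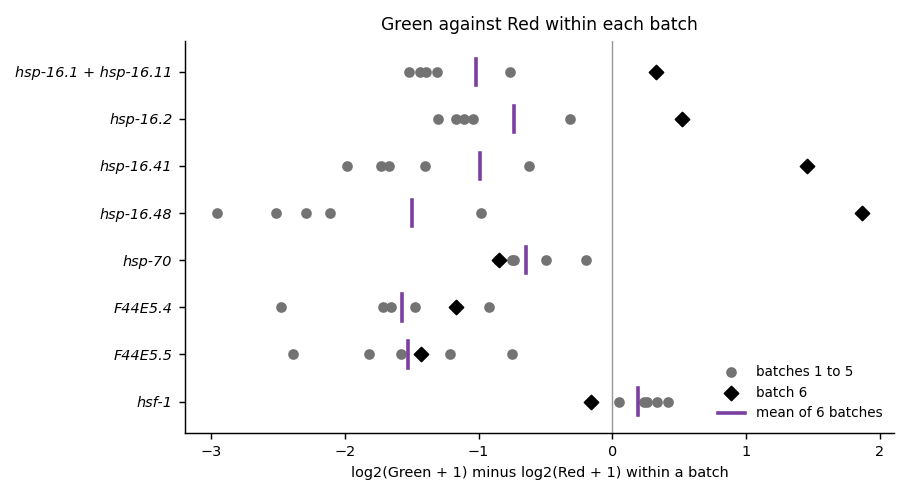
Difference log2(Green + 1) minus log2(Red + 1) within each batch (x axis) for the inducible heat shock genes (rows; hsp-16.1 and hsp-16.11 as their sum), with batches 1 to 5 as grey points, batch 6 as a diamond and the mean of 6 batches as a bar. The diamonds of that sum, hsp-16.2, hsp-16.41 and hsp-16.48 lie right of 0, at 0.33, 0.52, 1.46 and 1.87, and those of hsp-70, F44E5.4 and F44E5.5 lie left of 0 with the other batches.

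The small chaperones and the HSP70-class chaperones were then set against each other. The log2 fold of the summed hsp-16 rows exceeded that of the summed HSP70-class genes by 0.36, which was within the spread of the libraries (exact two-sided permutation p = 0.323, and 0.438 by exchanging libraries within batches). In batch 6 the families parted. The hsp-16 sum was 5343 in Green and 3107 in Red there, while the HSP70-class sum was 6999 in Green and 16510 in Red.

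Across the 6 Green libraries the family sums had a Pearson r of 0.83 (exact permutation p = 0.0403, adjusted p = 0.242) and a Spearman rho of 0.77 (exact p = 0.103, adjusted p = 0.525). Without the 2 libraries farthest from the median the Pearson r was 0.27. So few libraries, with their range cut, cannot show what that relation rests on. Across the 6 Red libraries r was 0.49 and rho 0.66 (exact p = 0.293 and 0.175), and r was 0.92 without the 2 farthest. Within Red, hsf-1 had an r of -0.65 and a rho of -0.49 with the hsp-16 sum (exact p = 0.158 and 0.356), and the r was -0.76 without the 2 farthest. Within Green these were 0.09 and 0.14 (exact p = 0.85 and 0.803), and the r was 0.07 without the 2 farthest. Over the batches, Green and Red values had an r of 0.08 and a rho of -0.03 for the hsp-16 sum (exact p = 0.881 and 1), and that r was 0.84 without the 2 farthest batches. For the HSP70-class sum r was 0.52 and rho 0.43 (exact p = 0.269 and 0.419), and r was 0.14 without the 2 farthest. None of the 6 relations passed adjustment over the 6.

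**Figure D4:**
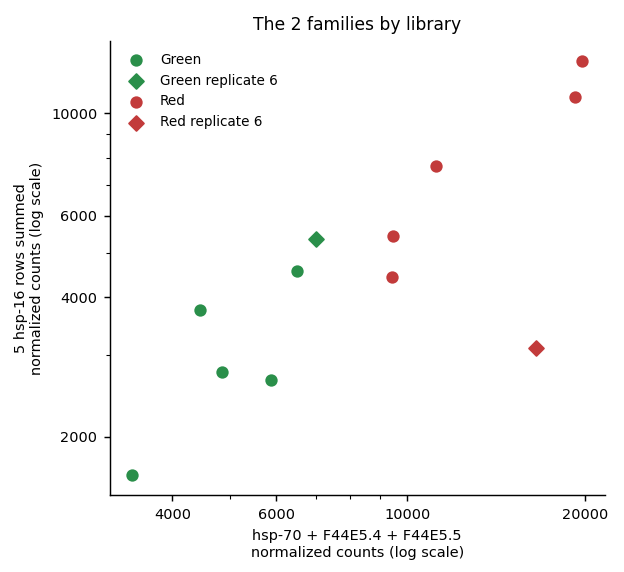
Summed normalized counts of the 5 hsp-16 rows (y axis) against those of hsp-70, F44E5.4 and F44E5.5 (x axis), both log scales, 1 point per library, with batch 6 as diamonds. The Green points reach 6999 on the x axis and the Red ones start at 9436, and Red replicate 6 has the lowest hsp-16 sum among the Red points at 3107.

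The hsp-16 genes were among the more variable genes within groups. On the log2 scale the within-group SD was 1.19 for hsp-16.48 and 0.88 for hsp-16.41, larger than in 98.5% and 96.3% of tested genes. For hsp-16.2 the SD was 0.56, for F44E5.4 it was 0.50, for F44E5.5 it was 0.46 and for hsp-70 it was 0.44. These were larger than in 85.3%, 80.9%, 77.3% and 74.6% of tested genes, so the HSP70-class genes were also above the median. The median tested gene had 0.27. hsf-1, at 0.17, varied less than most genes.

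Per kilobase of exon, levels can be set beside each other across genes. The summed hsp-16.1 and hsp-16.11, over their mean exon length, had 3829 ± 1231 normalized counts per kilobase in Green, against 8080 ± 3760 in Red (mean ± SD, 6 libraries a group). hsp-16.48 had 1257 ± 1109 in Green, against 3341 ± 2382 in Red. hsp-16.2 had 1157 ± 325 in Green, against 2016 ± 877 in Red, and hsp-16.41 had 775 ± 323 in Green, against 1715 ± 1002 in Red. Among the HSP70-class genes the per-kilobase order was F44E5.5, F44E5.4 and hsp-70 in both groups. F44E5.5 had 1181 ± 281 in Green, against 3528 ± 1261 in Red. F44E5.4 had 789 ± 251 in Green, against 2367 ± 846 in Red, and hsp-70 had 597 ± 145 in Green, against 945 ± 283 in Red. Mean levels of neighbours in this order differed by less than the sum of their SDs, other than F44E5.4 and hsp-70 in Red. Those SDs ignore that the genes share libraries. F44E5.5 was above F44E5.4 in each library, and F44E5.4 was above hsp-70 in each but Green replicate 2.

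The constitutive chaperone HSP-1 was far more abundant than its inducible relatives. Its gene had 78661 ± 4281 normalized counts per kilobase in Green, against 74713 ± 20308 in Red (mean ± SD, 6 libraries a group). Of the per-kilobase total of hsp-1, hsp-70, F44E5.4 and F44E5.5, the 3 inducible genes held 2.03% to 4.23% in Green libraries and 5.99% to 13.3% in Red libraries. The groups did not overlap in this share, which averaged 3.17% ± 0.83 in Green, against 8.58% ± 3.1 in Red.

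For the constitutive cytosolic chaperones hsp-1 and hsp-90 no fall passed the test. hsp-1 had a log2 fold of 0.11 (adjusted p = 0.533 in limma) and hsp-90, the HSP90 gene, one of -0.12 (limma adjusted p = 0.284). The first was 0.24 without Red replicate 6 (limma adjusted p = 0.00814) and turned to -0.21 with quantile normalization (adjusted p = 0.00606), so its direction depends on the scaling. The 26 tested genes listed as HSP70 and HSP90 machinery, which are not all cytosolic, had a median log2 fold of 0.15. Of these, 4 rose and 1 fell, against 19% and 20.1% of all genes tested. The 4 were pph-5, a phosphatase bound to HSP90, at 0.32, chn-1, the CHIP ubiquitin ligase, at 0.20, hsp-110, a nucleotide exchange factor for HSP70, at 0.28 (limma adjusted p = 0.0435), and Y22D7AL.10, related to the mitochondrial co-chaperonin HSP10, at 0.40. The last, counted in this list although HSP10 is mitochondrial, was named after its value was seen. Of the 4, all but pph-5 did not pass without some single libraries. The gene that fell was the J-protein gene dnj-24, at -0.47. dnj-13, an HSP40 gene, had a log2 fold of 0.05 (adjusted p = 0.722 in limma). In edgeR 3 of the 26 rose and 3 fell, and the block gave 7 and 3. Without Red replicate 6, 13 rose and 1 fell, against 29.3% and 25.5% of all genes tested.

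None of the 14 genes of the cytosolic chaperonin and prefoldin passed in limma in either direction, against 39.1% of all genes tested. Their median log2 fold was 0.08. At an unadjusted p under 0.05, 1 was higher and 1 lower in Green. In edgeR and with the block 0 rose and 1 fell, in DESeq2 1 rose and 2 fell, and without Red replicate 6, 5 rose and 0 fell.

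The small heat shock proteins outside the hsp-16 clusters were mixed. Of 11 tested, with a median log2 fold of -0.02, 1 rose and 2 fell, against 19% and 20.1% of all genes tested. Leaving out Red replicate 6 gave 3 that rose and 4 that fell, and the block gave 3 and 2. F08H9.3, a small heat shock protein gene at a low level, had 16.7 ± 8.03 normalized counts in Green, against 65.3 ± 32.7 in Red (mean ± SD, 6 libraries a group), a log2 fold of -1.80 (adjusted p = 0.0069 in limma). hsp-12.6, a small heat shock gene known as a target of DAF-16, had a log2 fold of -0.53, which was lost when Green replicate 3 or Red replicate 5 was left out (limma adjusted p = 0.0541 and 0.0515). Y55F3BR.6 rose by 0.37 on the log2 scale.

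The 16 tested genes for factors known to act on or beside heat shock factor 1 had a median log2 fold of 0.06. Of these, 5 fell and 0 rose, against 20.1% and 19% of all genes tested. At an unadjusted p under 0.05, 3 were higher in Green, and in edgeR 6 fell and 0 rose. Leaving out Red replicate 6 gave 5 that fell and 3 that rose, and the block gave 5 and 2. jmjd-3.1, a histone H3 lysine 27 demethylase tied in worms to the loss of the heat shock response in early adulthood, had 347 ± 80.1 normalized counts in Green, against 1060.5 ± 291 in Red (mean ± SD, 6 libraries a group). Every Green library, the highest at 425, was below every Red one, the lowest at 688, and the log2 fold was -1.60 (adjusted p = 7.21e-05 in limma). The RING finger gene nhl-1 had a log2 fold of -0.72 and the zinc finger factor gene pqm-1 one of -0.68. hlh-30, the TFEB gene of worms, had a log2 fold of -0.38. hpk-1, a homeodomain-interacting protein kinase gene, had one of -0.22, which was lost when Green replicate 1, 2, 5 or 6, or Red replicate 1, 2 or 4, was left out. It is named, with hlh-30, because so few passed. hsb-1, the heat shock factor binding protein gene and a negative regulator of HSF-1, had a log2 fold of 0.19 (adjusted p = 0.128 in limma).

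**Figure D5:**
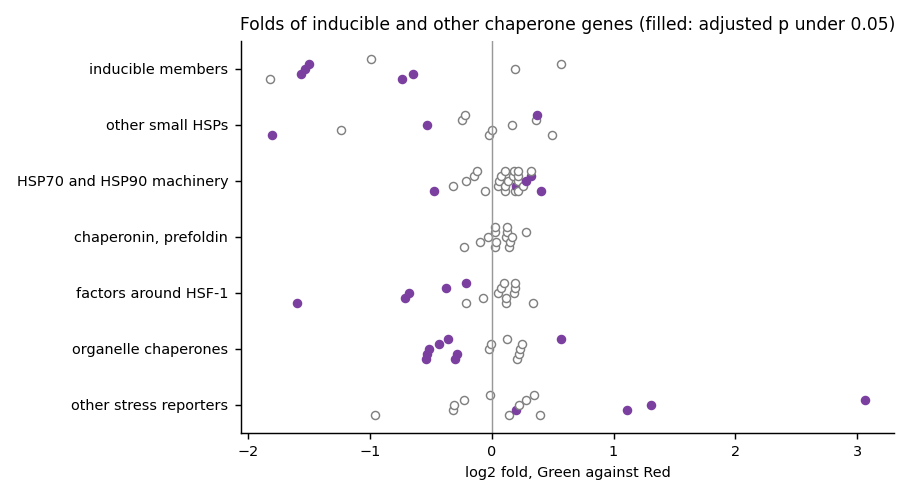
Log2 fold of Green against Red (x axis) for each tested gene of the inducible heat shock group and of 6 other lists (rows); filled points passed an adjusted p of 0.05 in limma. The inducible row has 5 filled points, all left of 0, while the HSP70 and HSP90 machinery has 4 filled points right of 0 and 1 left of it.

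Other stress genes went in different directions. Of 15 chaperone genes of the endoplasmic reticulum and mitochondria, 7 fell and 1 rose, against 20.1% and 19% of all genes tested. Without Red replicate 6, 7 fell and 5 rose, and the block gave 7 and 2. pdi-6, a protein disulfide isomerase gene, dnj-27 and dnj-20, both J-protein genes of the endoplasmic reticulum, had log2 folds of -0.54, -0.52 and -0.29. The 1 that rose was the mitochondrial chaperonin gene hsp-60, at 0.57, named after its value was seen. Of 14 reporter genes of other stress responses, 4 rose and 0 fell, against 19% and 20.1% of all genes tested. In edgeR these counts were also 4 and 0, and in limma 1 gene was lower at an unadjusted p under 0.05. When Red replicate 6 was left out 7 rose and 0 fell, and the block gave 4 and 2. The 4 that rose over all libraries were T24B8.5, an innate immunity marker, at a log2 fold of 3.06, the osmotic stress gene gpdh-1 at 1.31, and the oxidative stress genes gst-4 at 1.11 and gcs-1 at 0.20. gcs-1, named after its value was seen, was lost when 1 of Green replicates 1, 3 and 6, or 1 of Red replicates 2, 4 and 5, was left out. The adjusted p was then up to 0.0752 in limma. Over the 6 lists together, 96 genes were tested, and 10 rose and 15 fell, against 19% and 20.1% of all genes tested. With centring these were 24 and 9, against 4163 and 2337 of all 14618 genes. With quantile normalization they were 8 and 25, against 2359 and 2349 of all genes.

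The genes beside the clusters were examined as well. Of the 12 nearest protein-coding neighbours, 8 passed the filter, and 3 of these passed as lower in Green, against 20.1% of all genes tested. T27E4.1, which starts 1740 bases beyond hsp-16.11, had 51.04 ± 8.82 normalized counts in Green, against 113 ± 27.4 in Red (mean ± SD, 6 libraries a group), a log2 fold of -1.11 (adjusted p = 0.000599 in limma). T27E4.7, on the other side of the same cluster, had a log2 fold of -0.72 (adjusted p = 0.00105 in limma). F44E5.2, next to F44E5.5, had a log2 fold of -1.11 at a low level (limma adjusted p = 0.0465), which was lost when 1 of Green replicates 2 to 6, or 1 of Red replicates 2 to 5, was left out. Y46H3A.4, near hsp-16.41, had a log2 fold of 0.05 (adjusted p = 0.948 in limma). The gene after it, Y46H3A.5, 5469 bases from hsp-16.41 and named after its values were seen, had 245 ± 67 in Green, against 2232 ± 905 in Red, a log2 fold of -3.16 (adjusted p = 1.08e-05 in limma). Reads running on from 1 gene into the next were not tested.

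The genes most like the summed hsp-16 rows across the 12 libraries, after the group means were removed, were lgg-2, fbxb-4, dot-1.4, Y47H10A.2 and gadr-3. Their Spearman rho to the sum was 0.99, 0.98, 0.95, 0.95 and 0.95. lgg-2 encodes an Atg8-like protein of autophagy. All of these values share libraries, depth and the removal of group means, so they describe only how the libraries vary together. By the same measure F44E5.5 had a rho of 0.70, F44E5.4 of 0.62, hsp-70 of 0.43 and hsf-1 of -0.43.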

How the data were processed

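The deposited table holds a normalized signal, made by the authors by dividing gene counts by 1 size factor per library; divided by what 1 read is worth in its library, 100% of the entries were whole to within 0.001, although for Red replicate 2 the step is close to 1, which makes that check less decisive. Per the labels' protocols, extraction used Qiagen miRNeasy and library preparation Roche Kapa stranded mRNA HyperPrep. The submitters' processing notes list Salmon 0.14.2, STAR, DESeq2, FastQC 0.11.8 and MultiQC with build WBcel235. How strand and reads matching several copies were treated is not given in the sources used here. Counting that splits such reads can move counts between hsp-16.1 and hsp-16.11, hsp-16.48 and hsp-16.49, or F44E5.4 and F44E5.5, so copies were also summed. Positions were taken from Ensembl (release 115, WBcel235), which held 21896 of 21982 identifiers.

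The main test was limma 3.58.1 (R 4.3.3), with eBayes and an intensity trend, on log2(normalized count + 1) of the 14618 genes averaging at least 10, at a Benjamini-Hochberg adjusted p under 0.05 over all of them. The added 1 understates folds of low genes. Alternatives were a batch block, other pseudocounts (0.5 and 5), other filters (none, or a mean of 50), median centring, quantile normalization, count models on the recovered reads (edgeR 4.0.16 with TMM, DESeq2 1.42.0), and fits without each of the 12 libraries or without batch 6. On the recovered reads edgeR called 5609 genes, against 5719 in limma. In the labels every batch number belongs to 1 library of each colour, which pairs them, and deviations from the group means correlated within the pairs by 0.11 to 0.37. Because hsp-16.49 has no row, the planned sum with hsp-16.48 was hsp-16.48 alone, and the hsp-16 sum covers 5 rows. The members and gene lists were chosen with earlier results of these data known. Besides the members, the genes named were up to 3 of each list with the smallest p among those that passed, 5 chaperone genes and the neighbours of the clusters whatever their values, and the 5 genes most like the hsp-16 sum; genes named outside this rule are marked in the text. Permutations used Python 3.11.15 with scipy 1.17.1, and figures matplotlib 3.10.9.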

Additional observations from a re-analysis of the deposited data

Results flagged for a closer look

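In 26 groups of 6 libraries examined, 2 held a library far from the others. Chance alone would flag about 1 group in 20, so the count by itself is close to that rate. The groups are not independent, since some are sums of others. Both concern hsp-16.11. Green replicate 6 had 1490.2 normalized counts, while the other 5 Green libraries had 4.87 to 36.6. Red replicate 6 had 1885 normalized counts, while the other 5 Red libraries had 41.9 to 139. The gap between batch 6 and the other 10 libraries was 10.7-fold for this gene. The 1 gene with a larger upward gap was rpl-37, named after its values were seen. Downward, 10 genes had a gap of at least 8-fold, and the largest was 93.2-fold. The summed hsp-16.1 and hsp-16.11 had no such library.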

How the results depend on the processing

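The number of members lower in Green was 5, and it was 3 with no filter, 3 with quantile normalization, 2 with median centring, 8 without batch 6, and 2 to 7 when 1 library was left out. The number higher was 0, and it was 1 without batch 6 and 0 to 1 when 1 library was left out. F44E5.4, F44E5.5, their sum and the HSP70-class sum passed in limma without any 1 library; the HSP70-class sum then ranged from -1.49 to -1.26. The summed hsp-16 log2 fold ranged from -1.24 to -0.83. Centring moved the median of all tested genes from 0.04 to 0.16. With the batch as a block, 6 members were lower, hsp-16.11 being added (adjusted p = 0.00838), and no other member's call changed; the block is also where the labels' pairing enters.

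Over the 6 other lists, 10 genes were higher, against 18 with the block, 24 with centring, 33 without batch 6, and 6 to 36 without 1 library. There, 15 were lower, against 25 with quantile normalization and 9 with centring. Of all genes tested, 19% were higher and 20.1% lower in the main fit, and 27.2% and 23.7% without batch 6. The hsp-16.1 log2 fold of 0.57 was -1.21 in edgeR, -1.18 in DESeq2, -1.27 without batch 6 and -1.40 to 1.11 without 1 library. hsp-1 was -0.21 and dnj-13 was -0.091 with quantile normalization, hsp-90 was 0.0019 with centring and Y46H3A.4 was -0.12 without batch 6. Without 1 library dnj-13 ranged from -0.015 to 0.13 and Y46H3A.4 from -0.22 to 0.40. Without 1 batch, r between Green and Red for the hsp-16 sum ranged from -0.23 to 0.78, and r of hsf-1 with it in Green from -0.11 to 0.52. The causes of these changes were not tested. Libraries held 30185155 to 87141961 reads, and the effect of depth on these values was not tested.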
